A study of Mus musculus with 4 samples.

Results

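The granzymes, perforin and the genes of the cytotoxic granule were followed in mouse Th2 cells, with and without the small compound SH-2251 in the culture. The set was chosen by name and held 10 genes of the 18539 that could be named on the arrays, namely the granzyme genes Gzma, Gzmb, Gzmc and Gzmk, the perforin gene Prf1, the granule genes Srgn, Ctsw and Nkg7, and the granzyme inhibitor genes Serpinb9 and Serpinb6b. They were measured by 12 probes, with 2 probes each for Serpinb9 and Nkg7. Of the 10 genes, 9 were well above background on all 4 arrays, and Gzmk was above background on none of them.

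Cytotoxic granules are secretory lysosomes in which killer lymphocytes store perforin and granzymes. Perforin opens the membrane of the target cell, and the granzymes, a family of serine proteases, enter and cleave their substrates there. Serglycin holds these proteins inside the granule, and intracellular serpins protect the cell that makes granzymes from leaked protease. Although CD8 T cells and NK cells are the best known source, CD4 T cells activated in culture also transcribe granzyme genes, and Gzmb follows signals from the T cell receptor (TCR) and IL-2.

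CD4 T cells from the spleens of female C57BL/6J mice were purified by magnetic sorting, and all cultures received IL-4 at 10 ng/ml and IL-2 at 2.5 ng/ml. The cells were activated for 2 days on plate-bound antibody to TCR-β (3 µg/ml) with antibody to CD28 (1 µg/ml) and then grown for 3 more days. Control cells had no SH-2251, and treated cells had it in both phases. The labels give its dose as 1 µM in the first phase and 1 mM in the second, whereas the methods of the study give a lower dose unless otherwise stated, so the dose behind these arrays is unsettled. The labels name splenic CD4 T cells as the starting population, the methods name naive CD4 T cells and add an antibody to IFN-γ to the Th2 medium. Each culture was either left resting or restimulated for 4 h with plate-bound antibody to TCR-β, and RNA from each of the 4 conditions was hybridized to 1 single-colour array. With 1 array per condition there was no replicate and no test. The SD beside a difference is a technical error that the scanner software assigns to the signals, not a spread between samples. For bright probes it was nearly constant, at 0.144 per array and 0.204 per difference. Among probes with at least 10 spots, the median SD between the spots of a probe was smaller, 0.049 to 0.057 on the log2 scale. A fold change of at least 2 was used as the rule of size, and "rose" and "fell" are used below only for differences that passed it. All signals are log2 intensities with the array's own 75th percentile subtracted, so that 0 is the 75th percentile and 1 unit is a 2-fold change.

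All 4 arrays came from 1 slide and 1 scan, and the share of probes above background lay between 56.0% and 56.7%. Of the markers of CD4 T and Th2 cells, 8 of 9 had a probe, and all 8 were above background on every array, with a summed signal between 98.0 and 408 times the 75th percentile. This sum includes the cytokine genes Il4 and Il13, which rose with restimulation. Il4 went from 4.69 to 8.25 in control and from 4.59 to 8.02 in treated cells, so the range does not measure cell content. Of 9 NK cell markers with a probe, 5 were above background on no array, among them Ncr1 and Klrb1c, while Klrd1 (between -2.67 and -2.06) and Klra7 (between -2.52 and -2.13) were above background on all 4. The summed NK signal lay between 0.434 and 0.607. The summed signal of the mast cell and basophil markers lay between 0.245 and 0.295, and 5 of 7 with a probe (Mcpt8, Ms4a2, Mcpt1, Mcpt2 and Tpsb2) were above background on none. Cpa3 was above background on all 4 arrays, between -2.61 and -2.42, and Fcer1a on the resting control array. All 4 B cell markers were above background on every array, with a summed signal between 3.51 and 5.45, highest in the restimulated treated cells, and the myeloid markers summed to between 0.197 and 0.273. The CD8 T cell marker Cd8a was dim, at -3.53 in control and -2.07 in treated cells at rest, and at -2.82 and -1.85 after restimulation. It was thus higher with SH-2251 by 1.45 at rest and by 0.97 after restimulation, and the part of Cd8a and of the other markers in the results below was not tested. Fewer cells of a type and less RNA per cell cannot be told apart in such bulk samples.

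The promoters of the genes on which the results turn are shown for these reasons. In resting cells Gzma and Gzmb fell with SH-2251 while Gzmc, which lies next to Gzmb, did not. In restimulated cells Serpinb9 and Serpinb6b rose with SH-2251, Serpinb9 by 1 probe of 2. Each sequence holds the 250 bases before the transcription start, read 5′ to 3′ on the strand of the gene, from RefSeq on GRCm38.p6. The window of Gzma is chr13:113100982-113101231 on the minus strand, that of Gzmb chr14:56262335-56262584 on the minus strand and that of Gzmc chr14:56234658-56234907 on the minus strand. The windows of Serpinb9 (chr13:33004291-33004540) and Serpinb6b (chr13:32965011-32965260) are on the plus strand. Capitals mark exact matches on either strand to an AP-1 motif (TGANTCA), a CRE (TGACGTCA), a Runx motif (TGTGGT) or the NFAT core (GGAAA), none of which overlapped in these windows.
Gzma: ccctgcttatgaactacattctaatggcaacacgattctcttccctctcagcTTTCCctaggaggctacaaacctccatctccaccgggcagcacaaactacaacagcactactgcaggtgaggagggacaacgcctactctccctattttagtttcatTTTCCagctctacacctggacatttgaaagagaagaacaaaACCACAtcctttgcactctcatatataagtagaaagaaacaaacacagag
Gzmb: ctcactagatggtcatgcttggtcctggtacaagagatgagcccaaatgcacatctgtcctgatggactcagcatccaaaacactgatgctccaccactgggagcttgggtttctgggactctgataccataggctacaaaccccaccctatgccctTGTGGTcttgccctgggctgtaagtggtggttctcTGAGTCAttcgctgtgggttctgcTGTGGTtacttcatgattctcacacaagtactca
Gzmc: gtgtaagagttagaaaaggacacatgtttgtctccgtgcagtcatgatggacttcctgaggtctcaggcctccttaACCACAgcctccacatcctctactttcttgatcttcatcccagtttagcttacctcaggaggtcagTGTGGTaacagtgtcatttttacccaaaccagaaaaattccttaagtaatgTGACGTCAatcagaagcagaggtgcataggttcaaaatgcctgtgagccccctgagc
Serpinb9: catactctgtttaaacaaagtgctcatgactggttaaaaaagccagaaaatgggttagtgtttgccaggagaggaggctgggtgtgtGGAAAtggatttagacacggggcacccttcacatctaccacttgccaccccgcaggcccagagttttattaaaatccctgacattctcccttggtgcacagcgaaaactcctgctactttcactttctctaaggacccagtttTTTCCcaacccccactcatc
Serpinb6b: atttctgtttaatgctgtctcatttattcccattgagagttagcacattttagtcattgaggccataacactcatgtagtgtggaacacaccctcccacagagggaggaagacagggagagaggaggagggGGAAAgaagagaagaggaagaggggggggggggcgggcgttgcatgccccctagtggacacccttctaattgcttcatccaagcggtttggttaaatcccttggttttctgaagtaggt
The Gzmb promoter held the AP-1 motif at bases 58 to 52 before the start and a Runx motif on each side of it, at bases 93 to 88 and 34 to 29. The Gzmc promoter lacked the AP-1 letters and held a CRE at bases 57 to 50 and a Runx motif at bases 108 to 103 and 174 to 169. In the Gzma promoter the Runx motif lay at bases 50 to 45. Of the 9 genes of the set with a window, the AP-1 motif was found in 1 (Gzmb), against 6.75% of all 32851 promoter windows, and the CRE in 1 (Gzmc), against 1.55%. The table held 1 window for each of the 9 and a second one for Srgn. In the first windows, the Runx motif was found in 5, namely Gzma, Gzmb, Gzmc, Prf1 and Nkg7, against 14.0% of all windows. The NFAT core was found in the first window of 4, namely Gzma, Serpinb9, Serpinb6b and Nkg7, against 55.6% of all windows. The second window of Srgn held 1 Runx motif and 2 NFAT cores. A Gfi1 motif (the exact letters AAATCA) was searched as well and was found in none of the 9, against 12.4% of all windows. Shorter or variant forms of it were not searched. These matches describe the letters of the windows and not the binding of a factor.

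Gzma, which encodes the tryptase-like granzyme A, fell with SH-2251 to a similar extent in resting and in restimulated cells. Its log2 signal was 6.01 in resting control cells, 4.23 in resting SH-2251-treated cells, 6.57 in restimulated control cells and 4.85 in restimulated SH-2251-treated cells. Both treated arrays therefore lay below both control arrays. In resting cells the difference was -1.78 (technical SD 0.204), which left 29.2% of the control signal, and in restimulated cells it was -1.72 (technical SD 0.204), which left 30.3%. The change stood at rank 72 among the decreases of 11874 genes with a value on both resting arrays and at rank 73 among those of the 11812 genes measured on both restimulated arrays. Restimulation itself gave 0.56 in control and 0.61 in treated cells, short of 2-fold in each, and the responses differed by 0.05 (technical SD 0.289).

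Gzmb encodes granzyme B, which cleaves after aspartate and activates caspases in the target cell. Its log2 signal was 7.31 in resting control cells, 5.12 in resting SH-2251-treated cells, 8.49 in restimulated control cells and 7.55 in restimulated SH-2251-treated cells. The resting treated cells stood lowest, and restimulation brought the treated cells slightly above the resting control. In resting cells Gzmb fell by 2.20 on the log2 scale with SH-2251 (technical SD 0.204), a 4.59-fold decrease that ranked 40. In restimulated cells the difference of -0.94 (technical SD 0.204) left 52.0% of the control signal and stood just short of the 2-fold rule. Restimulation raised Gzmb 2.26-fold in control and 5.39-fold in treated cells, so that the log2 responses differed by 1.26 (technical SD 0.289).

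Gzmc, another granzyme gene and the direct neighbour of Gzmb, took a different course from Gzma and Gzmb. Its log2 signal was 0.61 in resting control cells, 1.03 in resting SH-2251-treated cells, 0.61 in restimulated control cells and 1.35 in restimulated SH-2251-treated cells. The differences with SH-2251 were 0.41 in resting and 0.74 in restimulated cells (technical SD 0.204 each), both above 0 but short of 2-fold. The Gzmk probe, for a tryptase-like granzyme encoded beside Gzma, read between -5.71 and -4.81 and cleared the background on no array, so no difference is given.

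Prf1, which encodes the pore-forming perforin, was dimmer than the 75th percentile throughout. Its log2 signal was -1.17 in resting control cells, -2.03 in resting SH-2251-treated cells, -0.76 in restimulated control cells and -1.05 in restimulated SH-2251-treated cells. The resting treated cells again stood lowest. The difference with SH-2251 was -0.86 in resting cells (technical SD 0.213), which left 55.0% of the control signal, and -0.29 in restimulated cells (technical SD 0.207). Neither reached 2-fold, and the resting difference was -0.12 under a model-based background correction (normexp), -0.58 under normexp without spots of uneven background, and between -0.87 and -0.80 under the other alternatives.

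The genes for the body of the granule differed less. Srgn, the gene of serglycin, gave 7.73 in resting control, 7.38 in resting SH-2251-treated, 8.29 in restimulated control and 8.05 in restimulated SH-2251-treated cells. Ctsw, which encodes the lymphocyte protease cathepsin W, gave 1.13, 0.99, 0.89 and 1.00 in the same order. Nkg7, which encodes a membrane protein of the granule, gave 0.75, 0.68, 2.10 and 1.84 by its brighter probe and -0.44, -0.33, 1.01 and 0.65 by its second probe. With SH-2251, Srgn differed by -0.35 at rest and -0.24 after restimulation, Ctsw by -0.14 and 0.11, and the brighter Nkg7 probe by -0.07 and -0.26. None of these reached 2-fold, and those of Ctsw were within the technical SD of 0.204. Nkg7 responded to restimulation instead, with a 2.56-fold rise in control and a 2.24-fold rise in treated cells. The second Nkg7 probe gave log2 responses of 1.44 in control and 0.98 in treated cells, the latter just short of 2-fold.

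**Figure D1:**
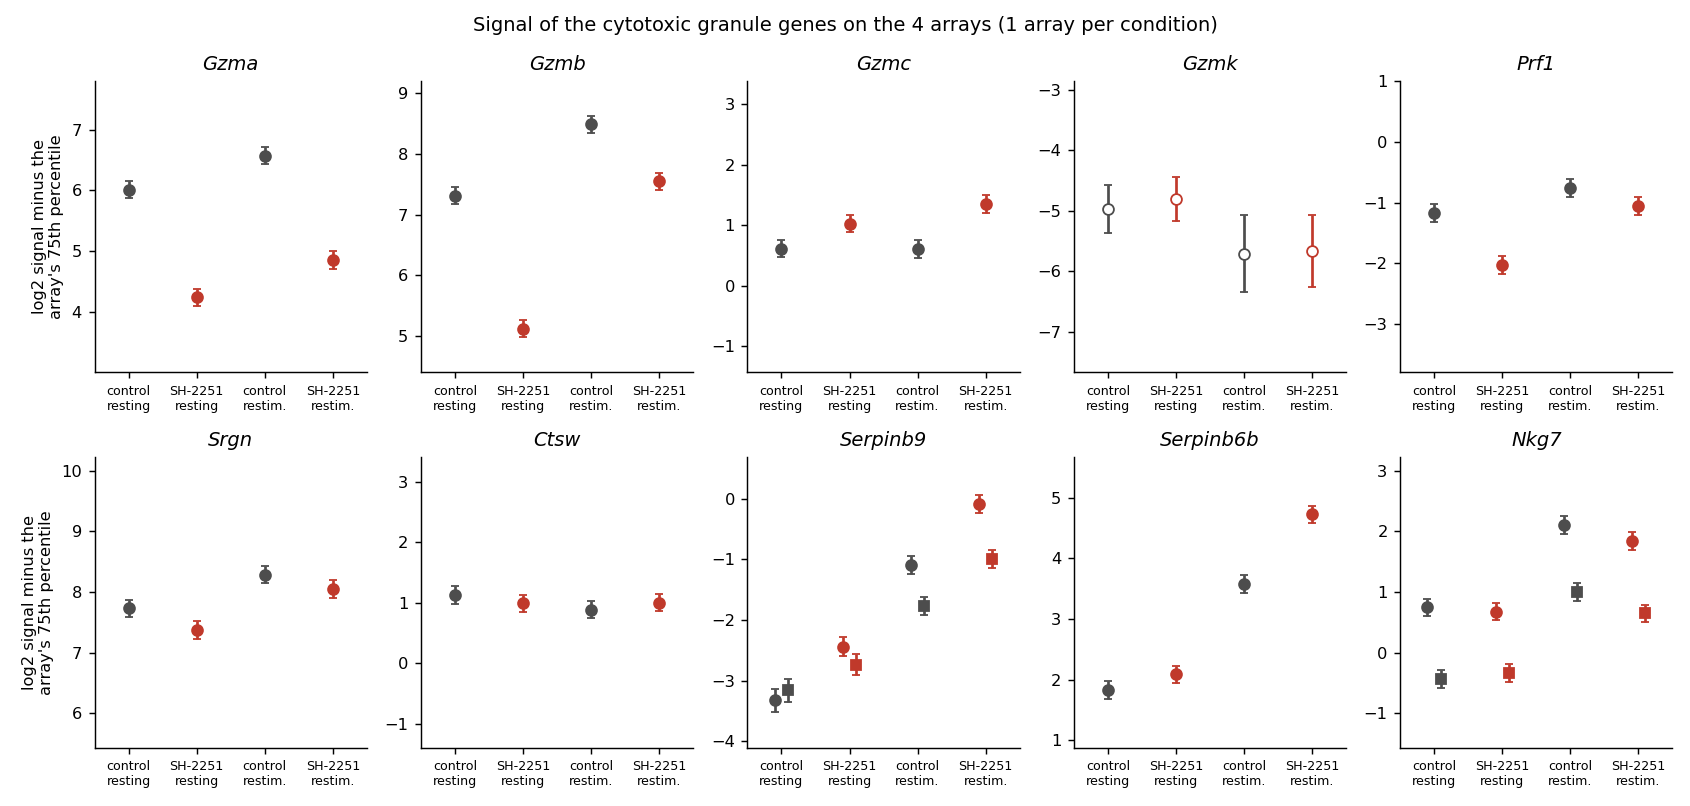
Log2 signal (the array's 75th percentile set to 0) of each of the 10 genes in the 4 conditions, with grey points for control and red points for SH-2251, squares for a second probe, open points for a probe below the background limit, and bars for the technical SD of 1 array. Each panel spans the same log2 range, so that the low red points of Gzma (4.23 and 4.85) and of resting Gzmb (5.12) can be set beside the nearly level Ctsw.

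The granzyme inhibitor genes, like Gzmc, were higher with SH-2251 than in control cells in both states, but the size at rest depended on the processing. Over all settings the resting difference lay between 0.43 and 1.03 for Serpinb9 and between 0.06 and 0.32 for Serpinb6b. Serpinb9 encodes a serpin that inhibits granzyme B, and its brighter probe gave -3.33 in resting control, -2.44 in resting SH-2251-treated, -1.10 in restimulated control and -0.09 in restimulated SH-2251-treated cells. Its second probe gave -3.16, -2.74, -1.77 and -1.0 in the same order. Both probes thus ranked the conditions alike, with the treated cells above the control in each state. The difference with SH-2251 was 0.88 in resting cells (technical SD 0.248) and 1.00 in restimulated cells (technical SD 0.206, 2.00-fold) by the brighter probe, and 0.43 and 0.78 by the second. Serpinb9 therefore only just passed the 2-fold rule in restimulated cells, and by 1 probe of 2.

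Serpinb6b, whose product inhibits granzyme A, gave 1.82 in resting control, 2.08 in resting SH-2251-treated, 3.58 in restimulated control and 4.73 in restimulated SH-2251-treated cells. Restimulated treated cells stood highest. It rose 2.21-fold with SH-2251 in restimulated cells (log2 difference 1.15, technical SD 0.204), where it ranked 184 among the increases, and differed by 0.26 (technical SD 0.204) in resting cells. Restimulation raised Serpinb6b 3.38-fold in control and 6.24-fold in treated cells, a difference between the log2 responses of 0.89 (technical SD 0.289). Serpinb9 rose 4.69-fold in control and 5.11-fold in treated cells by its brighter probe, and 2.62-fold and 3.34-fold by its second. Under normexp the log2 responses of the brighter probe were 1.41 and 1.25, in place of 2.23 and 2.35, and without spots of uneven background they were 1.41 and 1.85.

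Taking the 9 genes that could be compared, 2 (Gzma and Gzmb) were at least 2-fold lower with SH-2251 in resting cells, where 2.9% of 12683 genes were, and 0 were at least 2-fold higher, where 2.22% were. In restimulated cells 1 of 9 (Gzma) was at least 2-fold lower, against 2.78% of 12622 genes, and 2 (Serpinb9 and Serpinb6b) were at least 2-fold higher, against 2.65%. The median difference over the 9 genes was -0.14 in resting and -0.24 in restimulated cells, beside -0.06 and -0.06 over all genes. The set as a whole therefore did not move one way, and Gzma and Gzmb were lowest in both states. Both inhibitor genes were highest in restimulated cells only. At rest Serpinb9 was highest (0.88), and Gzmc (0.41) lay above Serpinb6b (0.26). The 9 genes were picked with earlier results of these arrays known, so these shares describe them and are not a test.

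**Figure D2:**
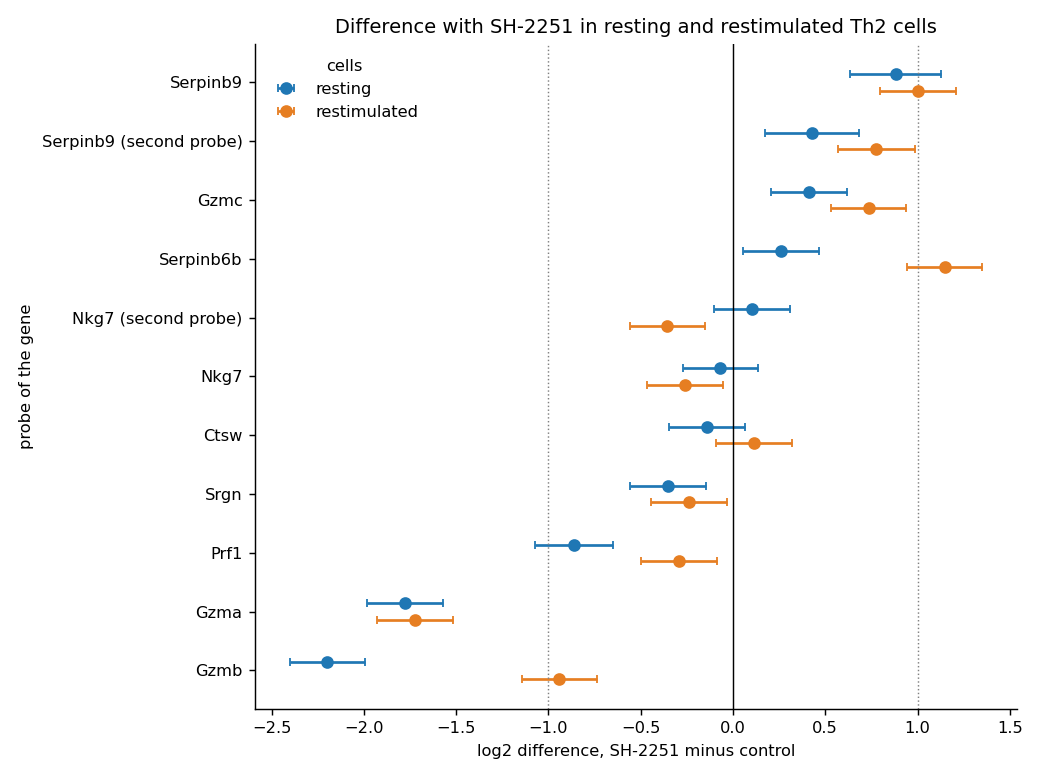
Log2 difference between SH-2251-treated and control cells (horizontal axis) for the 11 probes of the 9 genes above background, in resting (blue) and restimulated (orange) cells, with bars for the technical SD and dotted lines at a 2-fold change. Gzmb (-2.20) and Gzma (-1.78) lie to the left of the dotted line in resting cells, and Serpinb6b (1.15) lies to the right of it in restimulated cells.

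Restimulation through the TCR raised the same 4 genes in control and in treated cells, namely Gzmb, Serpinb9, Serpinb6b and Nkg7. In control cells these were 4 of 9 genes at least 2-fold higher, where 7.2% of 12757 genes were, and 0 of 9 were at least 2-fold lower, where 7.34% were. In treated cells they were 4 of 9, where 7.09% of 12613 genes were, and again 0 of 9 were lower, where 6.98% were. The median log2 response over the 9 genes was 0.56 in control and 0.98 in treated cells, while that over all genes was -0.06 and -0.05. Prf1 responded by 0.41 (technical SD 0.207) in control and by 0.98 in treated cells. The order of these Prf1 responses turned under normexp, which gave 0.38 and 0.22, and was kept when spots of uneven background were left out of normexp (0.38 and 0.68). Srgn responded by 0.56 and 0.67. Each of these responses shares an array with a difference between treated and control cells, and a low resting value in treated cells raises the response of those cells, as for Gzmb.

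**Figure D3:**
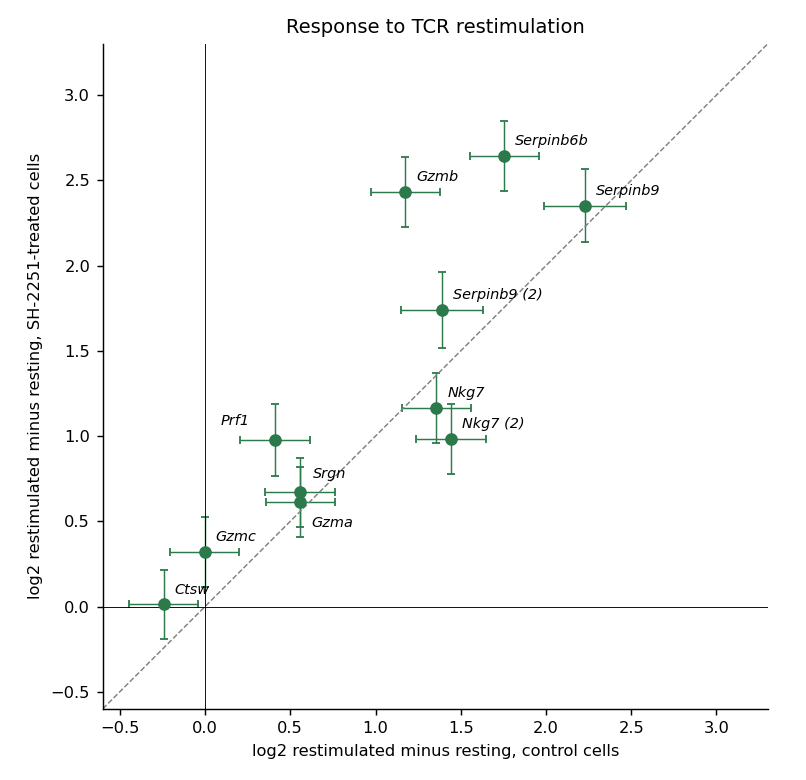
Log2 response to restimulation in control cells (horizontal axis) and in SH-2251-treated cells (vertical axis) for the 11 probes above background, with bars for the technical SD, a dashed line of equal response, and (2) for a second probe. Gzmb (1.17 and 2.43) and Serpinb6b (1.76 and 2.64) lie farthest above the line.

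The genes around the granzymes were then read in the order in which they lie on the chromosome, with the order taken from RefSeq. Gzmb and Gzmc stand at one end of a cluster of 15 protein-coding genes on chromosome 14, which also holds mast cell protease genes. Of these 15 genes, 10 were above background on no array, among them the granzyme genes Gzmd, Gzme, Gzmf, Gzmg and Gzmn and the mast cell protease genes Mcpt1, Mcpt2, Mcpt4, Mcpt8 and Mcpt9. Of the 3 that were above background on every array, Gzmb fell with SH-2251 in resting cells, and Gzmc and Ctsg (cathepsin G, a protease of myeloid cells) did not. Ctsg was dim, at -3.83 and -3.04 in resting control and treated cells and at -3.91 and -4.16 in restimulated ones. Gzmm, a granzyme gene that lies elsewhere, was at -2.92 and -2.56 in resting and at -3.57 and -3.76 in restimulated cells. Of 9 other granzymes and cluster neighbours in one list, 3 entered the comparison of resting with restimulated treated cells. Gzmm (-1.20) and Ctsg (-1.12), both dim, fell at least 2-fold there, where 6.98% of all genes did. In control cells they differed by -0.66 and -0.09, short of 2-fold. The mast cell chymase gene Cma1 was above background on the resting treated array alone and entered only through it. The direction of its bounds (-1.13 with restimulation in treated cells, 1.15 with SH-2251 at rest) was therefore fixed by that array. Probes of granzyme genes this alike can share targets, and the files hold no probe sequence to check it.

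Gzma and Gzmk lie on chromosome 13, and the genes on either side of the pair fell together with Gzma. Gpx8, which encodes a glutathione peroxidase, had a log2 signal of -1.08 in resting control, -4.0 in resting SH-2251-treated, -0.66 in restimulated control and -2.83 in restimulated SH-2251-treated cells. Esm1, which encodes the secreted proteoglycan endocan, gave 2.79, 1.29, 2.32 and 0.85 in the same order. Gpx8 fell by 2.92 (technical SD 0.298) in resting and by 2.16 in restimulated cells, and Esm1 by 1.5 and 1.47. Of the 5 genes read here that were above background on every array, 3 (Gpx8, Gzma and Esm1) were at least 2-fold lower with SH-2251 in both states. Of all genes, 2.9% were at least 2-fold lower at rest and 2.78% after restimulation. Gzmk, between Gzma and Esm1, could not be read. Further out, Ccno differed by -0.85 and -0.31 and Dhx29 by -0.24 and -0.18, so the 2-fold decreases ended on that side between Gpx8 and Ccno, where Mcidas and Cdc20b had no named probe. How far out this stretch was read was set after the values of Gpx8 and Esm1 were seen, and whether the neighbours moved together was not tested.

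Serpinb9 and Serpinb6b lie side by side in a serpin cluster on chromosome 13 that was read from Wrnip1 to Nqo2, 18 genes of which 15 had a named probe. This cluster was chosen after its values were seen. Serpinb1a, which encodes an inhibitor of neutrophil serine proteases and lies near Serpinb6b, gave 0.01 in resting control, 0.00 in resting SH-2251-treated, -0.01 in restimulated control and 2.53 in restimulated SH-2251-treated cells. It was level on 3 arrays and rose 5.81-fold with SH-2251 in restimulated cells alone. Serpinb1c, between Serpinb1a and Serpinb6b, gave -4.33, -4.36, -4.04 and -1.58, a 5.50-fold rise in the same cells. As these paralogs are close in sequence, a probe of one may read the other. Of the 7 genes of this cluster above background on every array, 4 were at least 2-fold higher with SH-2251 after restimulation, against 2.65% of all genes. These were the neighbours Serpinb1a, Serpinb1c, Serpinb6b and Serpinb9 (Serpinb9 by its brighter probe). Wrnip1 on the near side differed by -0.07, Serpinb6a near the far end by 0.16 and Nqo2 at the far end by -0.34. Serpinb1b and Serpinb6d were above background on the restimulated treated array alone, and Serpinb9g on the restimulated control array alone. Each was compared only through that array, so the direction of its bound with SH-2251 after restimulation was fixed. The bounds were 0.77 for Serpinb1b, 0.48 for Serpinb6d and -0.56 for Serpinb9g, and they add nothing to the count above. Beyond Serpinb9, the probes of Serpinb9b, Serpinb9c, Serpinb9d, Serpinb9e and Serpinb9f were above background on no array.

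**Figure D4:**
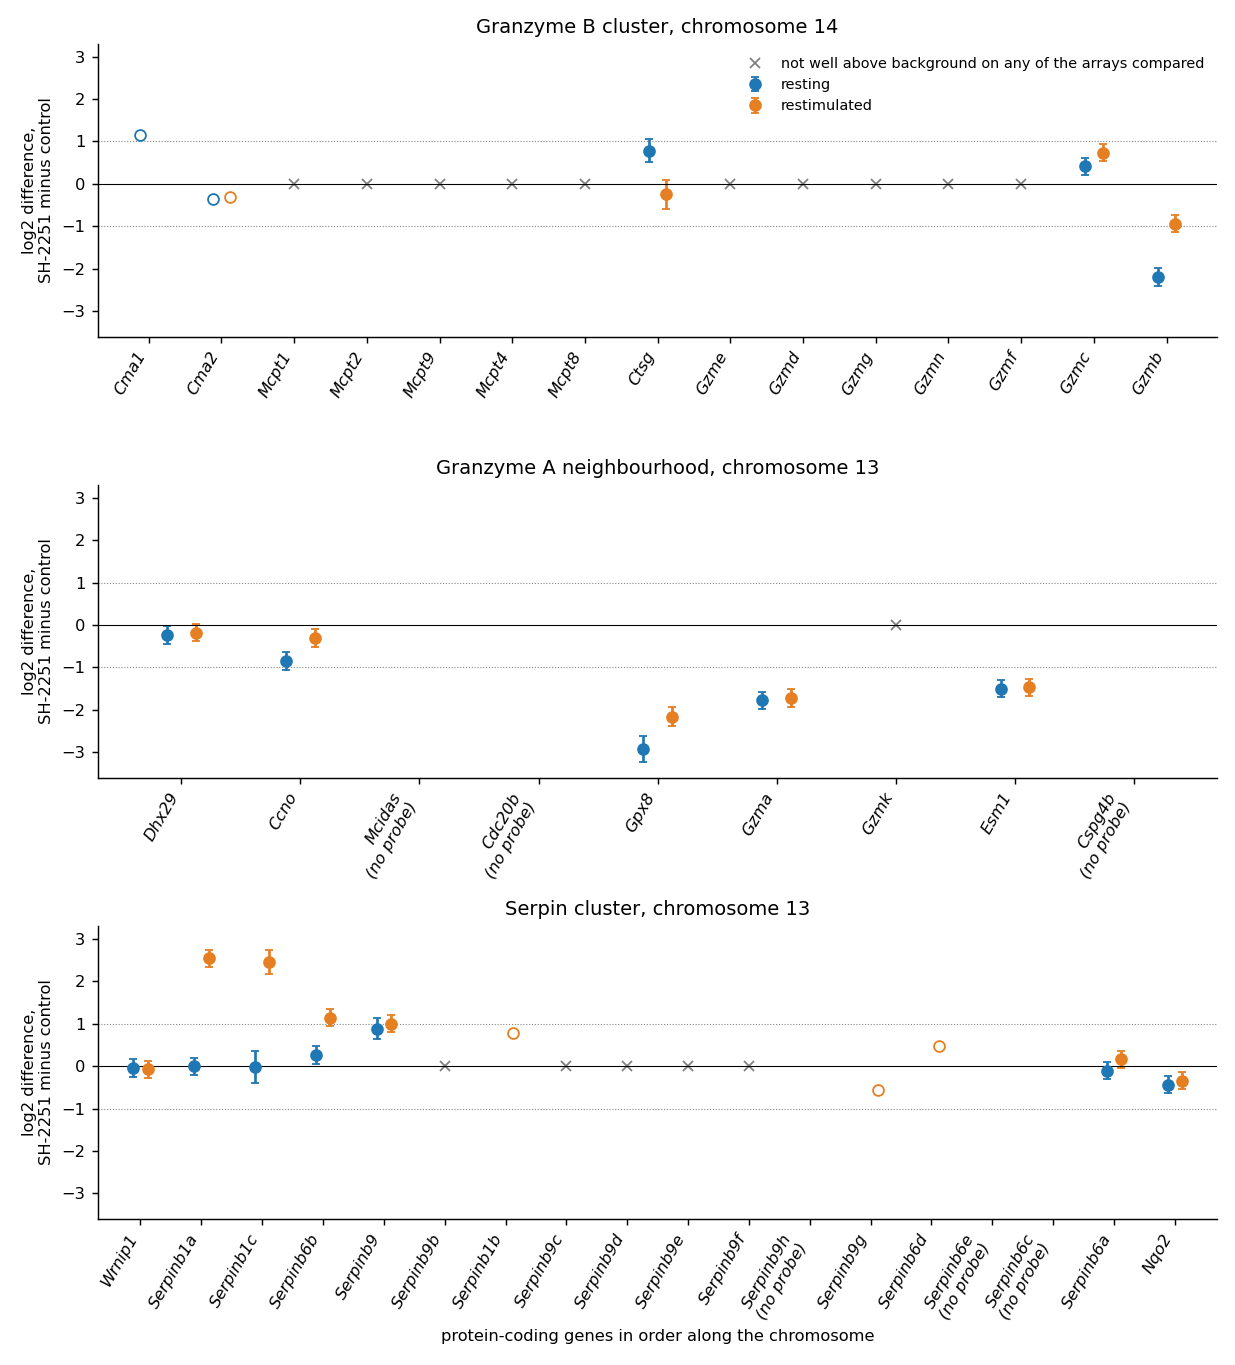
Log2 difference between SH-2251-treated and control cells (vertical axis) for the protein-coding genes of 3 stretches in their order along the chromosome, in resting (blue) and restimulated (orange) cells, with bars for the technical SD, open points for bounds, crosses for genes that could not be compared and dotted lines at a 2-fold change. Gpx8, Gzma and Esm1 lie below the lower dotted line in both states, and Serpinb1a and Serpinb1c lie above the upper one in restimulated cells (2.54 and 2.46).

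The other parts of the cytotoxic pathway were described by lists. Among 12 genes of granule transport and release with a probe, 0 differed at least 2-fold with SH-2251 in either state, near the shares of all genes (2.9% lower and 2.22% higher at rest, 2.78% and 2.65% after restimulation), and the median difference was 0.003 in resting and 0.06 in restimulated cells. Unc13d, which primes granules for fusion, read between 3.41 and 3.51 on the 4 arrays, and Rab27a, a GTPase that docks granules, between -0.60 and -0.18. Stx11, a syntaxin needed for release, gave 1.37 and 1.29 in resting control and treated cells and 3.35 and 3.26 after restimulation. It rose with restimulation in both, as did Lamp3, and these were the only 2 of the 12 that did so by at least 2-fold, against 7.2% of all genes in control and 7.09% in treated cells. The widest differences with SH-2251 in this list were -0.68 for Lyst and 0.61 for Lamp2, both in restimulated cells.

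Of the granule proteases and inhibitors outside the set, 6 of 9 could be compared, and Serpinb1a alone was past 2-fold with SH-2251, in restimulated cells, where 2.65% of all genes were higher. Ctsc, the gene of the dipeptidyl peptidase that activates granzymes by removing their N-terminal dipeptide, differed by 0.11 at rest and 0.03 after restimulation. Cst7, the gene of cystatin F, an inhibitor of that class of cathepsins, was bright on all arrays (between 5.60 and 5.94) and differed by -0.19 and -0.08.

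Of the 7 death ligands and effector molecules, 1 fell at least 2-fold with SH-2251 in resting cells (Fgl2) and 3 did so in restimulated cells (Fasl, Ifng and Fgl2), against 2.9% and 2.78% of all genes. Fgl2 differed by -2.88 in resting cells. It was not above background in restimulated treated cells, so its difference there is a bound (-3.06). Fasl, the gene of the ligand that triggers death through Fas, gave -1.99 and -2.85 in resting control and treated cells and -0.12 and -1.31 in restimulated ones. Its difference was -0.85 in resting and -1.20 in restimulated cells, below the control in both states, as for Gzma. Ifng, the gene of IFN-γ, gave -0.58 and -1.04 in resting and 5.34 and 3.70 in restimulated cells, with a difference of -1.64 after restimulation. Lta, the gene of lymphotoxin-α, went the other way, by 0.58 and 1.05, and Tnf differed by 0.37 and 0.06. Lta was the 1 of 7 at least 2-fold higher in restimulated cells, where 2.65% of all genes were. Restimulation raised 4 of the 7 in control and in treated cells (Fasl, Ifng, Tnf and Crtam), against 7.2% and 7.09% of all genes. Lta alone fell with restimulation, in control cells only (-1.06), where 7.34% of all genes did. The list did not move as one with SH-2251, and its median difference was -0.46 in resting and -0.60 in restimulated cells.

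Of 16 regulators of the cytotoxic programme, Gfi1 alone passed 2-fold with SH-2251 in either state, where 2.9% and 2.78% of all genes were lower. This repressor gave 3.38 in resting control, -2.01 in resting SH-2251-treated, 4.24 in restimulated control and 1.75 in restimulated SH-2251-treated cells. Tbx21, the gene of T-bet, which drives Gzmb and Ifng in killer cells, gave 0.41 and -0.43 in resting and 3.20 and 2.69 in restimulated cells, differences of -0.84 and -0.51. Bhlhe40 differed by -0.99 at rest and by 0.30 after restimulation, and Batf by -0.74 and 0.00. Runx3, a main regulator of the killer programme in CD8 T cells, read between 0.78 and 0.92 on all 4 arrays. Eomes, a T-box factor of NK and memory CD8 T cells, was above background in the treated cells only, at -4.17 and -4.27, which gives a difference of at least 0.56 and 0.38. Restimulation raised 5 regulators at least 2-fold in control cells (Tbx21, Zeb2, Id2, Bhlhe40 and Stat5a) and 7 in treated cells, with Irf4 and Gfi1 added, against 7.2% and 7.09% of all genes. Stat4 alone fell with restimulation, in control cells only (-1.17), where 7.34% of all genes did. The regulators' median difference was -0.34 in resting and 0.06 in restimulated cells.

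**Figure D5:**
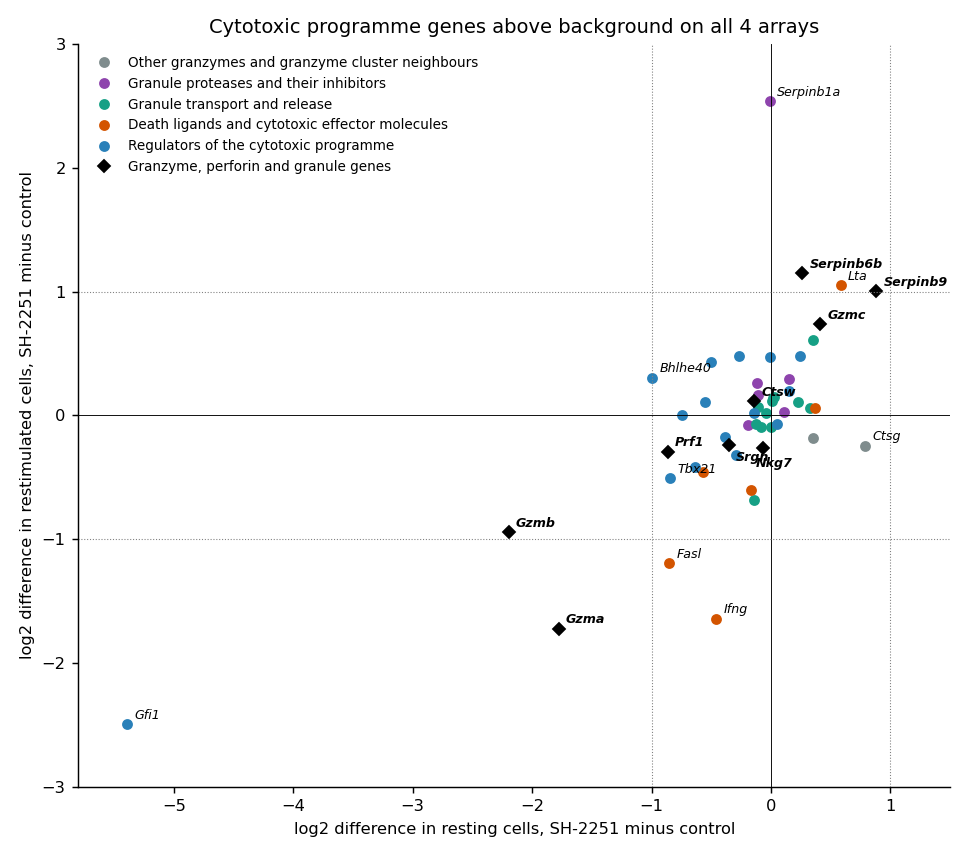
Log2 difference with SH-2251 in resting cells (horizontal axis) and in restimulated cells (vertical axis) for the 9 granule genes (diamonds) and for genes of 5 lists of the cytotoxic pathway (coloured points) that were above background on all 4 arrays, with dotted lines at a 2-fold change. Gfi1 (-5.39 and -2.49) lies at the lower left beyond Gzma and Gzmb, and Serpinb1a (2.54 in restimulated cells) at the top.

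The shape over the 4 conditions was compared by centring each gene on its own mean and taking the Euclidean distance between genes, over 11517 genes above background on every array. Among the granule genes, Prf1 and Srgn were nearest to each other (0.371), Serpinb9 and Serpinb6b were at 0.460, Gzma and Gzmb at 1.37, Gzmb and Gzmc at 2.74, and Gzma and Serpinb9 were farthest apart (3.19). Of all genes, Rab20 (0.468), Slc35d3 (0.533) and Runx2 (0.544) lay nearest to Gzmb, for which the median distance to all genes was 2.50. Rab20 gave -0.79 in resting control, -2.94 in resting SH-2251-treated, 0.98 in restimulated control and -0.34 in restimulated SH-2251-treated cells. Nearest to Serpinb9 were Tnfsf9 (0.291), Kdm6b (0.294) and Man1a (0.334), against a median of 2.58, and nearest to Serpinb6b were Kdm6b (0.281), Icam1 (0.320) and Tnfsf9 (0.328), against a median of 2.45. With 4 arrays these distances are a description, and many genes share such a shape.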

How the data were processed

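Gene expression was measured in 4 samples, 1 for each condition, on single-colour Agilent whole mouse genome arrays with probes designed on mm9. The authors deposited scanner intensities (Feature Extraction version 10.7.3.1), already corrected for background, and a table of log2 values. At least 99.6% of those log2 values were within 0.01 of the scanner intensities divided by the array's 75th percentile, and they served as an alternative. The 75th percentile was 561, 614, 499 and 583 intensity units, in the order control resting, SH-2251 resting, control restimulated and SH-2251 restimulated.

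The processed intensities were taken to log2 and each array's 75th percentile was subtracted (Python version 3.11.15, pandas version 2.3.3). Control spots and outlier spots (77 to 106 per array) were dropped, and a probe's spots were averaged. Of 41174 probes, 27198 (66.1%) were named through their RefSeq accession and a RefSeq gene table on GRCm38.p6, which also gave the order of neighbouring genes. Promoter sequences and their coordinates came from a RefSeq promoter table on the same build. A probe was well above background where most of its spots were. A gene took its brightest probe and was compared where that probe cleared the background on 1 array of the pair or both. A dim side was raised to the array's lowest signal well above background, if its own was lower, and gave a bound. The technical SD is the scanner software's error. The number of arrays, 1 per condition, limits the precision. Scripts were tested on simulated data.

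All 10 genes of the set are named with every probe, and other genes only as examples from lists, as neighbours or as nearest patterns. The members and lists were chosen with earlier results of these data known. Alternatives were median centring, quantile normalization and normexp (limma version 3.58.1, on median spot signals), other filters, probe rules and fold limits, and the authors' deposited values.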

Additional observations from a re-analysis of the deposited data

Results flagged for a closer look

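By the brighter probe of each gene, Ctsw and Gzmc had differences that pointed opposite ways. With SH-2251 it differed by -0.14 at rest and by 0.11 after restimulation, and with restimulation by -0.24 in control and by 0.012 in treated cells. Gzmc differed with restimulation by -0.0033 in control and by 0.32 in treated cells. The second probe of Nkg7 differed with SH-2251 by 0.10 at rest and by -0.36 after restimulation, where the brighter probe gave -0.07 and -0.26. These pairs of opposite signs were not tested, since each condition had 1 array. The technical SD of each Ctsw and Gzmc difference was 0.204, which 0.32 for Gzmc and -0.24 for Ctsw exceeded.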

How the results depend on the processing

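No paired analysis was possible because each condition had 1 array. In restimulated cells SH-2251 raised 2 granule genes at least 2-fold. This became 1 with the mean of a gene's probes, under quantile normalization and under normexp. It was also 1 with spots of uneven background kept out of normexp (an alternative chosen after seeing the data). At a 3-fold limit it became 0, and at a 1.5-fold limit 3. In resting cells 0 were higher, and this became 1 at a 1.5-fold limit and 1 under normexp. The 1 gene at least 2-fold lower in restimulated cells became 2 at a 1.5-fold limit, and the 2 lower in resting cells became 3. Restimulation raised 4 genes in each treatment. At a 3-fold limit these became 2 in control and 3 in treated cells, and at a 1.5-fold limit 7 in treated cells. Over all settings the resting difference of Gzma lay between -2.09 and -1.70, that of Gzmb between -2.45 and -2.09 and that of Prf1 between -0.87 and -0.12, and the restimulated differences between -1.72 and -1.60, between -0.94 and -0.90 and between -0.31 and -0.25. Of 36 differences, 11 moved by more than the technical SD under normexp and 5 under normexp without uneven spots, and the others moved 2 with the mean of probes, 1 under quantile normalization and 0 elsewhere. Only the response of Ctsw in treated cells and the resting difference of Nkg7, both within the technical SD, changed sign. Of all genes, normexp gave 162 decreases and 694 increases with SH-2251 at rest and 161 and 149 after restimulation, in place of 368, 282, 351 and 334. Without uneven spots these were 189, 122, 159 and 149, and with neither filter nor bound 798, 623, 950 and 678. Under normexp restimulation lowered 443 and raised 629 genes in control cells and lowered 1512 and raised 731 in treated cells, in place of 937, 918, 881 and 894. Without uneven spots it lowered 442 and raised 627 in control cells and lowered 443 and raised 660 in treated cells. The cause was not tested. The probe of Gzmk was too dim to read, and no setting supplies replicates.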
